A study of Homo sapiens with 4 samples.

Results

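The ATG8 family comprises the ubiquitin-like proteins that are attached to autophagosome membranes, and LC3B, the protein used as bait here, belongs to it. The 7 human genes of the family were picked by symbol from the 60676 genes of the deposited tables: MAP1LC3A, MAP1LC3B, MAP1LC3B2 and MAP1LC3C of the LC3 subfamily, and GABARAP, GABARAPL1 and GABARAPL2 of the GABARAP subfamily. Reads were found for 6 of the 7, and the same 6 reached a mean of 1 CPM, as did 15431 genes in all. CPM is a gene's count scaled to a library of 1000000 counts outside the mitochondrial genome.

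The data come from RNA immunoprecipitation (RIP) with a kit for native nuclear extracts and sequencing of polyadenylated RNA in U2OS cells, an established human osteosarcoma line grown without any treatment that the labels name. In this assay RNA that stays with an antibody's target, without crosslinking, is recovered and sequenced. The 4 libraries are RNA recovered with the LC3B antibody (LC3B RIP), RNA recovered with IgG (IgG RIP), and an input without antibody for each (LC3B input and IgG input). Each group holds 1 library from 1 cell line, so no difference was tested across samples, and every interval below is a 95% counting interval. In such bulk libraries fewer cells with an RNA and less RNA per cell cannot be told apart.

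ATG8 proteins are made as precursors that ATG4 proteases trim to a C-terminal glycine. ATG7 and ATG3 pass the trimmed protein on, and the ATG12-ATG5-ATG16L1 complex helps to attach it to the lipid phosphatidylethanolamine. On the membrane the LC3 proteins are known for gathering cargo receptors such as SQSTM1, and the GABARAP proteins for later steps of autophagosome formation. The antibody recognises the LC3B protein, so the count of MAP1LC3B mRNA does not check the RIP.

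Total counts were 10456770 in LC3B RIP, 10000914 in IgG RIP, 10782146 in LC3B input and 10886762 in IgG input. Mitochondrial genes took 0.774% of LC3B RIP and 1.76% of IgG RIP, against 20.8% of LC3B input and 22.8% of IgG input, and were left out of the totals. IgG RIP stood apart: 14440 genes had a read in it, against 22947 to 23915 in the other libraries. In the inputs 4 of 5 mesenchymal or osteoblast markers reached 1 CPM, and COL1A2, a fibrillar collagen chain, did not (0 in LC3B input and 0.238 in IgG input). The epithelial keratins KRT8 and KRT18 were abundant as well, at 1254 to 1485 CPM in the inputs, with EPCAM at 15.0 and 18.2 CPM in the LC3B and IgG inputs. All 4 epithelial markers and 2 of 3 neural or glial markers reached 1 CPM in both inputs, the neural ones at no more than 4.16 CPM, against 0 of 3 blood and 0 of 2 endothelial markers. The summed level of the mesenchymal markers was 3890.4 CPM in LC3B RIP and 1951 in IgG RIP, against 3208 and 2802 in the LC3B and IgG inputs. That of the epithelial markers was 4572 CPM in LC3B RIP and 3383 in IgG RIP, against 2671 and 2880.0 in those inputs, and their part in the results was not tested.

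Counts of MAP1LC3B were lower in LC3B RIP than in the other libraries, and those of the GABARAP subfamily were highest there. The stretches just upstream of 3 genes whose reads behaved differently are printed first: MAP1LC3B (lower with LC3B), MAP1LC3C (low with IgG) and GABARAPL2 (the largest fold over LC3B input). They run 5′ to 3′ on the gene's strand, over the 250 bases before the RefSeq start (GRCh38.p14), and capitals mark GC boxes, the letters CCGCCC or their reverse complement GGGCGG.
MAP1LC3B, chr16:87392086-87392335, plus strand: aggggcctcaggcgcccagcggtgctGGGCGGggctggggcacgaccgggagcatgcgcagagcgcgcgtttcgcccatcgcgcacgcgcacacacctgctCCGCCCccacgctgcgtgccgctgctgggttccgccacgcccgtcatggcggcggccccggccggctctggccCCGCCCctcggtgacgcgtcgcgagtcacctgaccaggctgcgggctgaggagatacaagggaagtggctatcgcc
MAP1LC3C, chr1:241999099-241999348, minus strand: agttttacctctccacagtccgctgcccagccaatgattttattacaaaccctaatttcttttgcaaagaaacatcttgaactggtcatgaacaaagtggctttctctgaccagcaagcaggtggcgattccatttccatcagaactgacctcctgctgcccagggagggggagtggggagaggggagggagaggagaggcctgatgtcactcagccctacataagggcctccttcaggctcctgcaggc
GABARAPL2, chr16:75566129-75566378, plus strand: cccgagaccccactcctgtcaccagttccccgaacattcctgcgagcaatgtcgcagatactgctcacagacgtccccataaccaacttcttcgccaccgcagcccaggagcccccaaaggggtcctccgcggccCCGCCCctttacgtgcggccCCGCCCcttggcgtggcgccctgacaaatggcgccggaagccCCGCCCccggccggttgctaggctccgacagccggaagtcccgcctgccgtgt

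The upstream stretch of MAP1LC3B was the richest of these in CpG, with 33 CpG and 74.8% G or C, followed by GABARAPL2 with 24 CpG and 68.4%. That of MAP1LC3C had 2 CpG and 52.4%. The MAP1LC3B stretch lies inside the gene's Ensembl span, which begins farther upstream. The median over 35116 RefSeq promoters was 11 CpG and 58.0%. MAP1LC3B and GABARAPL2 each held 3 GC boxes and MAP1LC3C held 0, while 42.6% of all promoters held at least 1 on either strand. The stretches not printed held 2 GC boxes and 15 CpG (GABARAPL1), 1 and 19 (GABARAP), and 0 and 8 (MAP1LC3B2). Only that of MAP1LC3C held the letters CCAAT of the CCAAT box, as did 32.0% of promoters. No member with an entry held TATAAA, the TATA box, found in 10.7% of promoters. The E-box CACGTG, the core of the element through which TFEB drives lysosomal and autophagy genes, was not in these letters for any of the 6 members with an entry, and 6.34% of promoters held it. GABARAPL1 alone among them held the cAMP response element TGACGTCA, present in 1.65% of promoters, on both strands since it is a palindrome. These matches describe the sequence, and the libraries hold no measurement of factor binding.

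By TPM, which is divided by transcript length and so allows genes to be set beside each other, the members kept 1 order in all 4 libraries. GABARAP, first found as a partner of the GABA type A receptor, stood highest, at 586 TPM in LC3B RIP and 484 in IgG RIP, against 374 in LC3B input and 401 in IgG input. GABARAPL2 came next with 273 and 174 TPM in the LC3B and IgG RIPs, against 153 and 160.1 in their inputs. MAP1LC3B had 88.1 and 145 TPM in the LC3B and IgG RIPs, against 109 and 112 in the LC3B and IgG inputs. The order went on with GABARAPL1 (28.97 to 73.95 TPM), MAP1LC3C (9.13 to 27.3) and MAP1LC3B2 (1.64 to 4.41). The closest neighbours were MAP1LC3B and GABARAPL1 in LC3B RIP, 1.19-fold apart, and GABARAPL2 and MAP1LC3B in IgG RIP, 1.21-fold apart. In the inputs neighbours were at least 1.41-fold apart. Mitochondrial genes are part of these TPM and took more of the inputs, so a RIP and its input cannot be compared directly in them. Rescaled without mitochondrial genes, GABARAP had 493 TPM in IgG RIP and 526 in IgG input. GABARAPL2 had 177 and 210 there, and MAP1LC3B 147.2 and 146.5. In LC3B RIP and LC3B input the rescaled values were 590 and 477 for GABARAP, 275 and 196 for GABARAPL2, and 88.7 and 139 for MAP1LC3B. The spread of these levels between replicates is unknown.

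**Figure D1:**
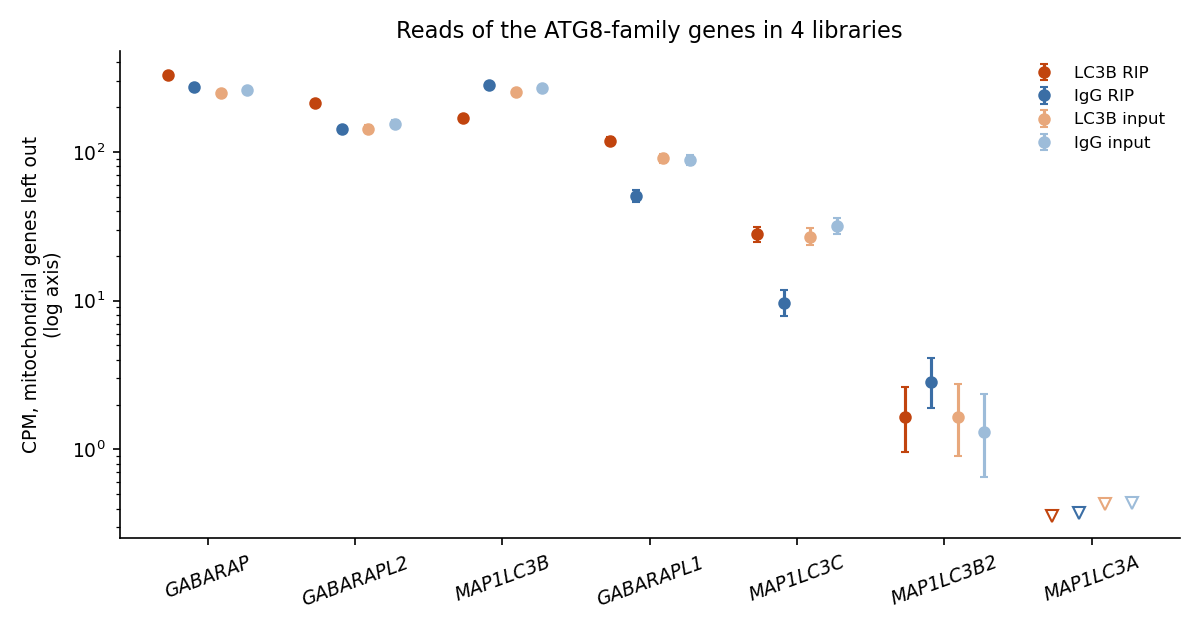
CPM outside mitochondrial genes (log axis) of the 7 ATG8-family genes in the 4 libraries, with exact Poisson 95% intervals; open triangles mark the upper limit where a library had 0 reads. MAP1LC3B sits lowest in LC3B RIP (169.5 CPM), MAP1LC3C and GABARAPL1 sit lowest in IgG RIP (9.67 and 50.6 CPM).

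MAP1LC3B (ENSG00000140941, chromosome 16, 87383953 to 87404779, plus strand, hg38, protein coding, 6 transcripts) encodes the bait itself, the ATG8 protein most used as an autophagosome marker. It had 1759 reads (exact Poisson 95% interval 1678 to 1843) in LC3B RIP and 2772 (2669.8 to 2877) in IgG RIP. LC3B input held 2169 (2079 to 2262) and IgG input 2262 (2169.7 to 2357). In CPM this was 169.5 in LC3B RIP and 282 in IgG RIP, against 254 and 269 in the LC3B and IgG inputs. LC3B RIP was thus the lowest of the 4 libraries and the other 3 lay close together. The fold of LC3B RIP over its input was 0.668 (95% interval 0.627 to 0.711), while that of IgG RIP over its input was 1.05 (0.991 to 1.11). Between the RIPs, LC3B over IgG, the fold was 0.601 (0.566 to 0.638). None of these met the bounds for a call, which ask for an interval wholly at or above 2 or at or below 0.5.

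Over LC3B input, a fold like that of MAP1LC3B was common among abundant genes. Among 2301 genes whose mean input level was 100 CPM or more, the middle 50% lay between 0.624 and 1.22 there. The 5% and 95% quantiles were 0.390 and 1.78. Between the RIPs the middle 50% of these genes lay between 0.673 and 1.39, and MAP1LC3B, at 0.601, was below that range. The 5% and 95% quantiles between the RIPs were 0.424 and 2.63. Without an antibody, between the inputs, these quantiles were 0.892 and 1.13 for the same genes, and MAP1LC3B stood at 0.943 (0.889 to 1.001) in the LC3B over IgG input. Counts of the inputs differed by 2.59 times the median chi-square of counting alone, so the printed intervals are too narrow for library differences.

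GABARAP (ENSG00000170296, chromosome 17, 7240008 to 7242449, minus strand) had 3401 reads (3288 to 3517) in LC3B RIP and 2682 (2581 to 2785) in IgG RIP. Its inputs held 2127 (2038 to 2219) for LC3B and 2174 (2084 to 2267) for IgG. All 4 libraries lay within 249 to 328 CPM, with LC3B RIP on top. Over LC3B input the fold was 1.32 (1.25 to 1.39). Over IgG input IgG RIP stood at 1.06 (0.997 to 1.12), or 0.938 from deposited TPM rescaled without mitochondrial genes. Between the RIPs the fold was 1.20 (1.14 to 1.26). GABARAP was not called in any of these.

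GABARAPL2 (ENSG00000034713, chromosome 16, 75566375 to 75577881, plus strand), also called GATE-16 for its part in transport within the Golgi, had 2223 reads (2132 to 2317) in LC3B RIP and 1395 (1323 to 1470.2) in IgG RIP. LC3B input held 1216 (1149 to 1286) and IgG input 1297 (1227 to 1369.6). At 214 CPM LC3B RIP stood above the other libraries, which lay at 142 (IgG RIP), 142 (LC3B input) and 154 (IgG input). Its fold of 1.51 (1.40 to 1.62) over LC3B input was the largest of the 6 members, and above the upper quartile of 1.22 for genes of its abundance. Between the RIPs the fold was likewise 1.51 (1.41 to 1.61). IgG RIP stood at 0.920 (0.852 to 0.993) over its input, a direction that turned to 1.17 (1.08 to 1.26) with mitochondrial genes kept in the totals.

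GABARAPL1 (ENSG00000139112, chromosome 12, 10212458 to 10223128, plus strand, 19 transcripts), a close relative of GABARAP, had 1225 reads (1157 to 1296) in LC3B RIP and 497 (454 to 543) in IgG RIP. Its inputs held 775 (721 to 832) for LC3B and 740 (688 to 795) for IgG. LC3B RIP stood above both inputs, at 118 CPM, and IgG RIP below both, at 50.6 CPM against 90.7 and 88.1 CPM in the LC3B and IgG inputs. The fold over input was 1.30 (1.19 to 1.43) with LC3B and 0.575 (0.512 to 0.645) with IgG. Between the RIPs it was 2.33 (2.10 to 2.60) and was called higher, a call lost with trimmed-mean scaling (2.19, 1.97 to 2.43) and with median-of-ratios scaling (2.15, 1.94 to 2.39).

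MAP1LC3C (ENSG00000197769, chromosome 1, 241995490 to 241999098, minus strand, 1 transcript) encodes LC3C, an LC3 protein known for binding the receptor CALCOCO2 when bacteria are cleared. It had 290 reads (258 to 325) in LC3B RIP and 95 (76.9 to 116) in IgG RIP. LC3B input held 230 (201 to 262) and IgG input 268 (237 to 302). IgG RIP, at 9.67 CPM, stood apart from the other 3 libraries, which lay between 26.9 and 31.9 CPM. LC3B RIP matched its input within counting error, at 1.04 (0.870 to 1.24). With mitochondrial genes kept in the totals that fold was 1.30 (1.09 to 1.55), an interval above 1. IgG RIP was called lower than its input, at 0.303 (0.237 to 0.385), and LC3B RIP was called higher than IgG RIP, at 2.89 (2.29 to 3.68). Both calls rest on IgG RIP.

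MAP1LC3B2 (ENSG00000258102, chromosome 12, 116548105 to 116576606, plus strand) is a near-identical copy of MAP1LC3B, so reads may have been divided between these genes and its counts are uncertain. It had 17 reads (9.90 to 27.2) in LC3B RIP, 28 (18.6 to 40.5) in IgG RIP, 14 (7.65 to 23.5) in LC3B input and 11 (5.49 to 19.7) in IgG input. The intervals of all 4 overlapped in part. Its fold of 2.18 (1.05 to 4.85) in IgG RIP over its input and of 0.9997 (0.464 to 2.19) in LC3B RIP over its input were not called. MAP1LC3A (ENSG00000101460, chromosome 20, 34546854 to 34560345, plus strand), which encodes LC3A, had 0 reads in each library. The exact Poisson interval of a count of 0, by the same method as for the other counts, reaches 3.69 reads. That is 0.356 CPM in LC3B RIP, 0.375 in IgG RIP, 0.432 in LC3B input and 0.439 in IgG input.

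**Figure D2:**
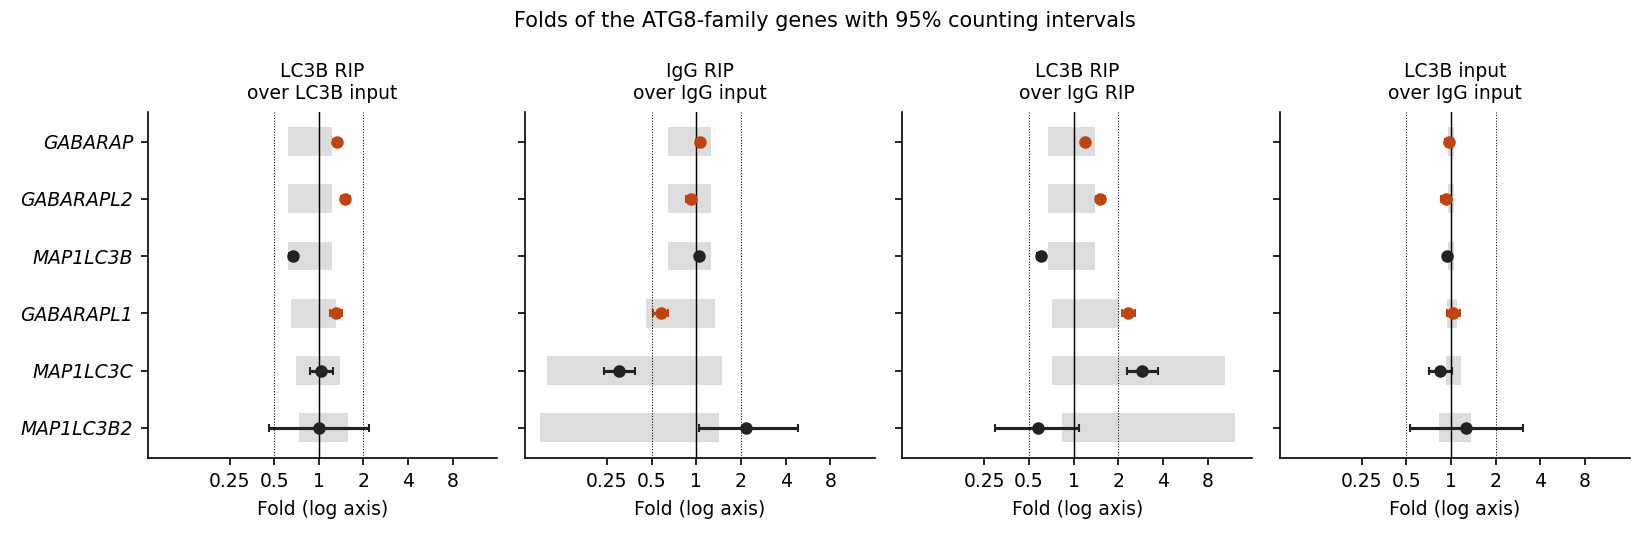
Fold (log axis) of 6 ATG8-family genes in 4 comparisons, with 95% counting intervals, GABARAP subfamily in red and LC3 subfamily in black; grey bars span the middle 50% of genes of the same input abundance and dotted lines mark 0.5 and 2. MAP1LC3C (0.303) is the only member called in IgG RIP over its input, and members sit near 1 between the inputs.

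As a group, 0 of the 6 members with reads were called higher and 0 lower in LC3B RIP over its input, against 1.4% and 4.48% of all genes tested. Their median fold was 1.16, against 1.01 over all genes. Among genes of 100 CPM or more in the inputs, 1.13% were called higher and 10.3% lower over LC3B input. Intervals lay wholly above 1 for 3 members, all of the GABARAP subfamily, and below 1 for 1, MAP1LC3B, while 30.7% and 31.1% of all genes did so. Here and below, shares of such intervals depend on read depth and were not split by abundance. In IgG RIP over its input 0 members were called higher and 1 lower, against 9.69% and 33.6% of all genes, with a median fold of 0.982 against 0.733. Intervals lay wholly above 1 for 1 member, MAP1LC3B2, and below 1 for 3, against 31.2% and 53.4% of all genes. Between the RIPs, LC3B over IgG, 2 members were called higher and 0 lower, against 33.8% and 9.45% of all genes, and the median of 1.35 equalled that of all genes, 1.35. Intervals lay above 1 for 4 members and below 1 for 1, MAP1LC3B, against 53.6% and 32.0% of all genes. The family's calls between the RIPs were thus near those of all genes, but these shares changed with abundance. At 100 CPM or more in the inputs (MAP1LC3B, GABARAP, GABARAPL2) 8.56% were called higher and 7.21% lower, with a median of 0.950. At 30 to 100 CPM (GABARAPL1) it was 20.9%, 6.56% and 1.12. At 10 to 30 CPM (MAP1LC3C) it was 37.4%, 8.10% and 1.49, and at 1 to 10 CPM (MAP1LC3B2) 51.7%, 9.92% and 4.26. Between the inputs 0 members were called, against 0.136% higher and 0.156% lower of all genes. Intervals there lay above 1 for 0 members and below 1 for 1, GABARAPL2, against 12.7% and 8.94%, and member folds lay between 0.844 (MAP1LC3C) and 1.25 (MAP1LC3B2). With mitochondrial genes kept in the totals every fold over LC3B input shifted by 0.32 on the log2 scale and every fold over IgG input by 0.35. On that scale 880 genes were called higher and 250 lower over LC3B input, against 216 and 691 without these genes, and 2355 higher and 4425 lower over IgG input, against 1495 and 5185. Still 0 members were called over LC3B input.

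The input-corrected ratio divides the fold of LC3B RIP over its input by that of IgG RIP over its input. MAP1LC3B had a ratio of 0.637 (0.586 to 0.693), and the members of the GABARAP subfamily had ratios of 1.25 (1.15 to 1.35) for GABARAP, 1.64 (1.48 to 1.81) for GABARAPL2 and 2.26 (1.96 to 2.62) for GABARAPL1. MAP1LC3C, at 3.41 (2.55 to 4.56), was the 1 member called higher and 0 were called lower, against 29.1% and 7.58% of all genes. Intervals lay above 1 for 4 members and below 1 for 1, against 49.5% and 28.8% of all genes. MAP1LC3C stood at 1.04 over LC3B input and 0.303 over IgG input, and GABARAPL1 at 1.30 and 0.575. Low counts in IgG RIP were common at such levels. Of 3568 genes with a mean input level of 10 to 30 CPM, the class of MAP1LC3C, 16.5% had 0 reads in IgG RIP and 35.9% were called lower there than in IgG input. In the class of GABARAPL1, at 30 to 100 CPM, 22.7% were called lower, and among those of 100 CPM or more 12.4%.

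**Figure D3:**
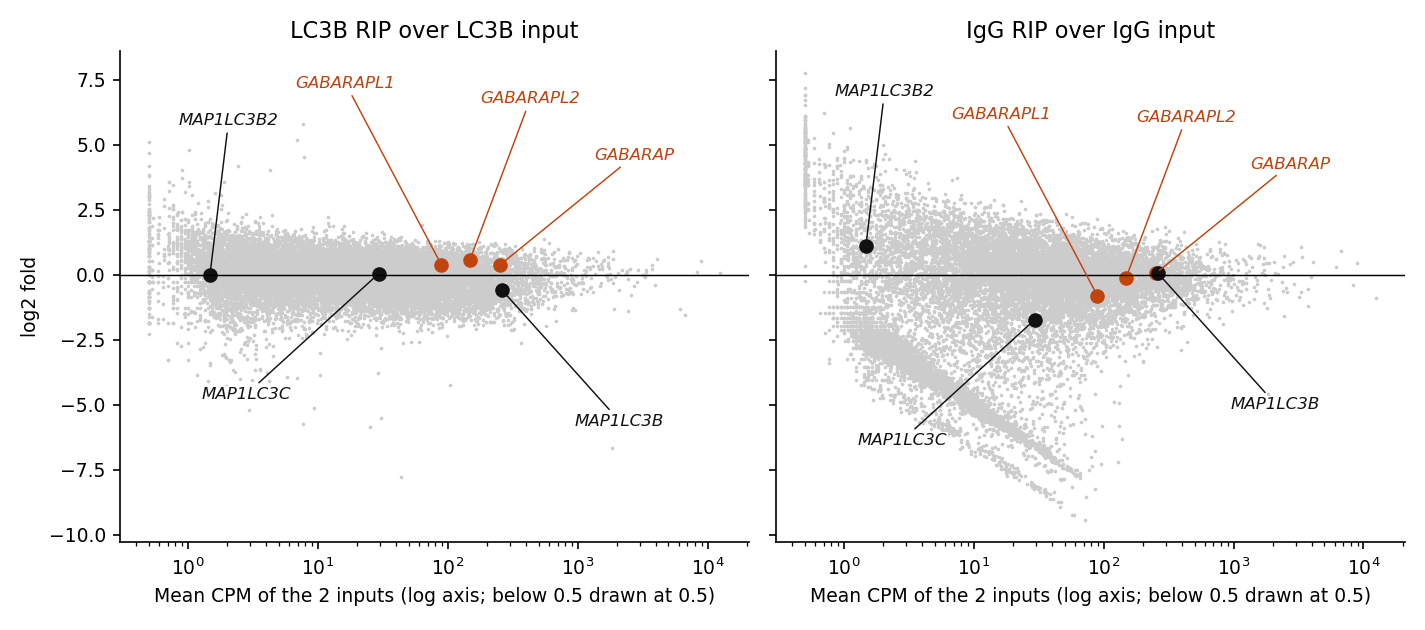
Log2 fold over input against mean input CPM (log axis) for 15431 genes (grey) in LC3B RIP (left) and IgG RIP (right), with the 6 ATG8-family genes marked; a gene with 0 reads in a library is drawn with 3 reads. Grey points spread far lower with IgG below 100 CPM, where MAP1LC3C (log2 fold -1.72) and GABARAPL1 (-0.80) lie.

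The make-up of the family's own reads does not depend on how libraries are scaled. The family had 8915 reads in LC3B RIP and 7469 in IgG RIP, against 6531 in LC3B input and 6752 in IgG input. MAP1LC3B took 19.7% of these (exact binomial 95% interval 18.9 to 20.6) in LC3B RIP and 37.1% (36.0 to 38.2) in IgG RIP. In the inputs it took 33.2% (32.1 to 34.4) for LC3B and 33.5% (32.4 to 34.6) for IgG. The GABARAP subfamily took 76.8% (75.9 to 77.7) in LC3B RIP, against 61.2% (60.1 to 62.3) in IgG RIP, 63.1% (61.9 to 64.2) in LC3B input and 62.4% (61.2 to 63.5) in IgG input. For both of these shares LC3B RIP lay farthest from the other libraries, although MAP1LC3B in IgG RIP also lay above the intervals of both inputs. For GABARAPL1 and MAP1LC3C it was IgG RIP that lay farthest from the others, although GABARAPL1 in LC3B RIP also lay above the intervals of both inputs. GABARAPL1 took 13.7% (13.0 to 14.5) in LC3B RIP and 6.65% (6.10 to 7.24) in IgG RIP, against 11.9% (11.1 to 12.7) in LC3B input and 10.96% (10.2 to 11.7) in IgG input. MAP1LC3C took 3.25% (2.89 to 3.64) in LC3B RIP and 1.27% (1.03 to 1.55) in IgG RIP, against 3.52% (3.09 to 3.998) in LC3B input and 3.97% (3.52 to 4.46) in IgG input. By deposited TPM the GABARAP subfamily took 88.8% in LC3B RIP, against 81.2% to 81.3% in the others.

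**Figure D4:**
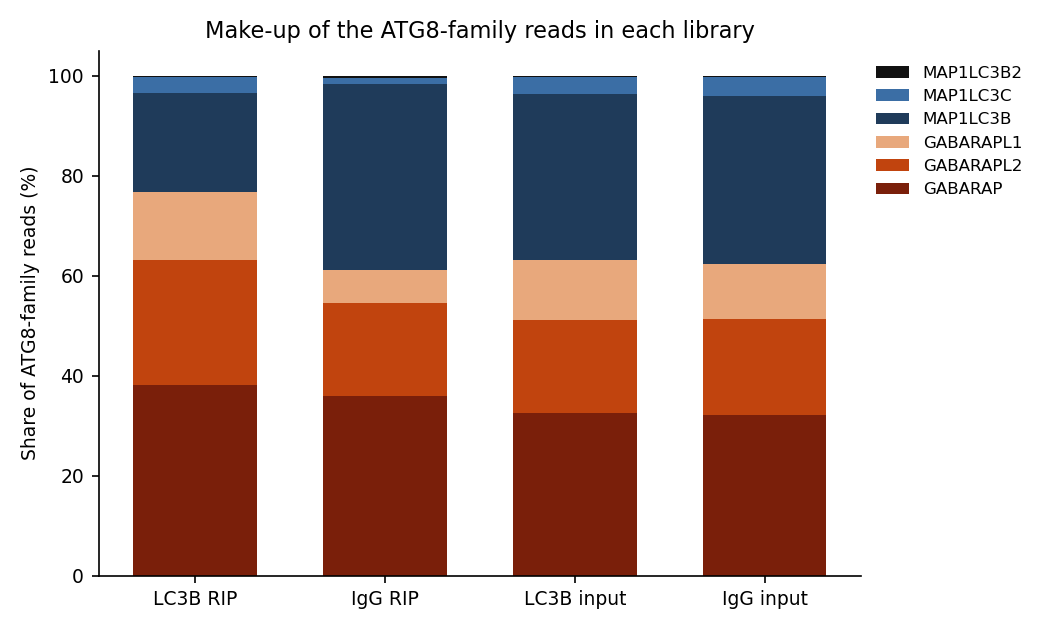
Share of ATG8-family reads (%) taken by each gene in each library, with the GABARAP subfamily in red tones and the LC3 subfamily in blue and black. The MAP1LC3B share is 19.7% in LC3B RIP, against 33.2% to 37.1% in the other libraries.

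Set against GABARAP in the same libraries, which removes any scaling, the fold of MAP1LC3B over LC3B input was 0.507 times that of GABARAP (0.467 to 0.551). In IgG RIP over its input the corresponding ratio was 0.993 (0.918 to 1.08), and between the inputs 0.980 (0.901 to 1.07). GABARAPL1 kept pace with GABARAP over LC3B input, at 0.988 (0.890 to 1.10), but not over IgG input, at 0.545 (0.480 to 0.618). MAP1LC3C stood at 0.788 (0.658 to 0.945) over LC3B input and 0.288 (0.227 to 0.367) over IgG input. GABARAPL2 stood at 1.14 (1.05 to 1.25) over LC3B input and 0.872 (0.793 to 0.958) over IgG input. Summed, the GABARAP subfamily stood at 1.37 (1.32 to 1.42) over LC3B input and 0.929 (0.891 to 0.969) over IgG input. The LC3 subfamily stood at 0.705 (0.664 to 0.748) and 0.975 (0.924 to 1.03), and since MAP1LC3B gave most of its reads this is largely that gene.

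Genes with the pattern over the 4 libraries most like a member's were sought by the distance of log2 CPM centred on each gene's mean. The pool held 9362 genes with their own symbol whose CPM averaged 10 or more across all 4 libraries. A gene low in the inputs could thus enter it through a RIP. Members themselves had to reach 10 CPM in both inputs. Nearest to MAP1LC3B were CCDC138 (distance 0.0257) and SMARCC2 (0.0261), to GABARAP TMEM267 (0.0173) and SAMD4B (0.0273), and to GABARAPL2 ATP5F1E (0.0230) and LINC00862 (0.0490). LRWD1 (0.0179) and TAMM41 (0.0504) were nearest to GABARAPL1, and TBPL1 (0.0707) and BAG2 (0.0852) to MAP1LC3C. Within the family GABARAP and GABARAPL2 were closest, at 0.236, with 381 genes nearer to GABARAP and 256 nearer to GABARAPL2. MAP1LC3B and MAP1LC3C were farthest apart, at 1.67. No member had another member as its nearest gene.

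The machinery around the family was read from 19 listed genes, all of which reached 1 CPM. Over LC3B input 0 of 19 were called higher and 1 lower, against 1.4% and 4.48% of all genes, with a median fold of 0.869 against 1.01 over all genes. The lower one was the receptor TAX1BP1, at 0.464 (0.439 to 0.490). Over IgG input 1 was called higher and 7 lower of 19, against 9.69% and 33.6% of all genes, with a median of 0.723 against 0.733 over all genes. ATG16L2, a relative of the conjugation factor ATG16L1, was the higher one, at 7.12 (5.38 to 9.60), with 458 reads in IgG RIP and 55 in IgG input. The proteases ATG4A and ATG4D, ATG16L1 and the microtubule-associated protein MAP1A had 0 reads in IgG RIP, against 77, 129, 75 and 69 in IgG input. NBR1, a cargo receptor with an LC3-binding motif, stood at 0.0298 (0.0157 to 0.0516), MAP1S at 0.0482 (0.0204 to 0.0976) and CALCOCO2 at 0.199 (0.168 to 0.234). Between the RIPs the same 7 genes of 19 were called higher with LC3B and 1, ATG16L2, lower, against 33.8% and 9.45% of all genes. The list's counts over IgG input and between the RIPs were thus near the background, and these calls rest on IgG RIP. SQSTM1, the receptor also known as p62, was not called, at 1.195 (1.14 to 1.25) over LC3B input and 0.674 (0.639 to 0.712) over IgG input.

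Few reads were counted for pseudogenes and antisense transcripts named for the family. The tables hold 18 further features whose symbol or description names a family gene, 16 pseudogenes and 2 antisense transcripts, and 16 of the 18 had 0 reads in all libraries. The exceptions, AC079448.1 and AC090877.1, pseudogenes of MAP1LC3B and MAP1LC3B2, had at most 3 reads in a library. The strand setting of the counting and the handling of reads that match several places are not stated in the labels or file headers, and how they bear on these zeros was not tested.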

How the data were processed

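RNA was measured in 4 libraries of U2OS cells, 1 per group, made with SMART-Seq v4 per the labels' protocols. Groups follow the sample titles. A deposited table gives unnormalized counts for Ensembl genes, per its file name and headers, and digit-grouping commas were removed from it. A second deposited table gives TPM, which the authors computed within a library (file headers name the unit), and the transcript lengths used are not stated. Folds from deposited TPM were rescaled to TPM totals without mitochondrial genes. The submitters' processing notes name cutadapt 2.8, STAR 2.7.1a and hg38.

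Counts were scaled by totals without mitochondrial genes, which ranged from 8404123 (IgG input) to 10375786 (LC3B RIP). Genes averaging 1 CPM or more were kept. Folds carry exact conditional binomial (Clopper-Pearson) 95% intervals, computed with scipy 1.17.1, and a gene was called when its interval lay at or above 2, or at or below 0.5. The input-corrected ratio added 0.5 to each count and used a log-normal interval. Ratios against GABARAP did likewise. A library at 0 was given 3 reads in a fold. Intervals cover counting error only, since each group holds 1 library. PCR reads without molecular identifiers are not independent molecules, so the intervals may be too narrow even for counting error. The interval code was tested on simulated Poisson counts. These meet the assumption of the intervals, so the test checks the code and not the fit to these libraries. Trimmed-mean and median-of-ratios factors came from the published definitions in purpose-written code. Named genes were the 7 members, a list of 19 pathway genes, features named for members (the search of descriptions was added after seeing the tables) and the 2 nearest genes of each member of at least 10 CPM in both inputs. The members and lists were chosen with earlier results of these data known. Promoter sequences are from RefSeq (GRCh38.p14), where 6 of the 7 members matched. Protein sequences were not used here.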

Additional observations from a re-analysis of the deposited data

Results flagged for a closer look

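For 5 members the point folds of the RIPs over their own inputs lay on opposite sides of 1, and with 1 library per group that difference was not tested. For GABARAPL1 and GABARAPL2 both intervals excluded 1, and for MAP1LC3B, MAP1LC3C and MAP1LC3B2 1 of the intervals included it. MAP1LC3B was below its input with LC3B (0.668) and near it with IgG (1.05), an input-corrected ratio of 0.637 (95% counting interval 0.586 to 0.693). GABARAPL2 was above its input with LC3B (1.51) and below it with IgG (0.920, or 1.17 with mitochondrial genes in the totals), a ratio of 1.64, and GABARAPL1 likewise (1.30 and 0.575), a ratio of 2.26. MAP1LC3C was at 1.04 with LC3B and at 0.303 with IgG, a ratio of 3.41. Its fold with LC3B was 0.968 from deposited TPM, 0.876 with the other input and 1.30 with mitochondrial genes in the totals. The ratio of MAP1LC3B2, 0.469 (0.177 to 1.24), rests on 11 to 28 reads per library, and its interval includes 1.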

How the results depend on the processing

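No paired analysis was possible because each group holds 1 library. Of 217 member folds recomputed under 8 alternatives (another scaling, deposited TPM, thinned counts, the other input, MAP1LC3B and MAP1LC3B2 summed), 196 stayed within their counting interval, 21 moved beyond it and 0 called folds reversed; 3 calls changed, all of GABARAPL1. Members called higher between the RIPs numbered 1 with TMM and 1 with median-of-ratios scaling, against 2, and 0 with bounds of 4 and 0.25. Of all genes, 4841, 4771 and 3698 were called higher there in these settings, against 5219 (33.8%). Members called higher by the input-corrected ratio numbered 2 with deposited TPM, where GABARAPL1 stood at 2.34 (2.02 to 2.71), and 2 with point folds, against 1. They numbered 0 with bounds of 4 and 0.25, and point folds also called 1 lower, MAP1LC3B2. Of all genes, this ratio called 4442 higher with deposited TPM, 6070 with point folds and 2729 with those bounds, against 4491 (29.1%). In IgG RIP over its input the bounds of 4 and 0.25 left 0 members called lower, and point folds called 1 higher, MAP1LC3B2. Of all genes, those bounds called 3610 lower there, against 5185 (33.6%). Point folds called 2304 higher, against 1495 (9.69%). Over all genes, totals with mitochondrial genes gave 880 higher and 250 lower over LC3B input (against 216 and 691) and 2355 higher over IgG input (against 1495). Bounds of 4 and 0.25 gave 13 and 35 over LC3B input, 366 higher over IgG input, 377 lower between the RIPs (against 1459), 6 and 9 between the inputs (against 21 and 24), and 2729 and 257 for the input-corrected ratio (against 4491 and 1169). Point folds gave 1213 and 1691, 2304 higher, 2213 lower, 452 and 315, and 2336 lower in the same places. Between the inputs deposited TPM gave 82 and 58, no filter 61 and 53, and a filter of 5 CPM 1 and 6. That filter left 2974 lower over IgG input (against 5185), 2923 higher between the RIPs (against 5219) and 2757 higher for the input-corrected ratio, since fewer genes were tested. TMM shifted folds between the RIPs by -0.09 and median-of-ratios scaling by -0.12 on the log2 scale. Uncalled folds near 1 crossed it for MAP1LC3C over LC3B input (0.968 with deposited TPM, 0.876 with the other input), GABARAP (0.938 with deposited TPM) and GABARAPL2 (1.17 with mitochondrial genes in the totals) over IgG input, and MAP1LC3B2. The depth limits MAP1LC3B2 and MAP1LC3A most.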

Other observations

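Other features overlap the members in the tables. FBXO31, on the opposite strand of the span of MAP1LC3B, had 53 reads in LC3B RIP and 1 in IgG RIP, against 79 in LC3B input and 42 in IgG input. AC120057.2, overlapping GABARAP on its own strand, had 0 reads in LC3B RIP and 24 in IgG RIP, and 0 in both inputs. AC120057.3, on the opposite strand, had 78 and 29 reads in the LC3B and IgG RIPs, against 67 and 46 in the LC3B and IgG inputs. Beside the 2682 GABARAP reads of IgG RIP these numbers are small.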
